A study of Mus musculus with 12 samples.

Results

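The surface molecules with which an activated B cell engages T cells are described here through the mRNA of 9 genes: Cd80, Cd86, Icosl, Cd274, Cd83, Cd69, Icam1, Cd44 and Il2ra. They were taken by gene name from a deposited table of normalized counts that lists 29486 genes, and all 9 are in it. Total polyadenylated RNA was sequenced from splenic B cells of C57BL/6Babr mice in 12 libraries, 4 for each of 3 conditions. All were primary B cells from young adult mice, purified with a B cell isolation kit and activated with the mitogen LPS (bacterial lipopolysaccharide, 10 μg/ml). The LPS condition received LPS alone for 48 h. The LPS + etoposide condition received LPS for 48 h and then 20 μM etoposide for 4 h, a topoisomerase II poison that breaks DNA. The LPS + KU55933 + etoposide condition received LPS for 47 h, 10 μM of the ATM kinase inhibitor KU55933 for 1 h, and then 20 μM etoposide for 4 h. Whether the LPS condition was kept for the 4 h of etoposide is not stated in the labels, and no condition had KU55933 without etoposide.

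An activated B cell becomes a partner for T cells by placing ligands and adhesion proteins on its surface. CD80 and CD86, the B7 molecules, bind the activating receptor CD28 and the inhibitory receptor CTLA-4 on T cells, ICOSL binds ICOS and sustains help from follicular T cells, and CD274 (PD-L1) binds the inhibitory receptor PD-1. CD69 and CD83 are induced within hours of stimulation, ICAM-1 and CD44 hold the cell to integrins and to hyaluronan, and IL2RA (CD25) is the chain that gives the IL-2 receptor its high affinity. Many of these genes are known targets of NF-kB in lymphocytes and myeloid cells.

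The values carry a limit that applies to every comparison. Any pair of columns of a condition had the same ratio for every gene, to within 3e-14 on the log2 scale, so that each column is 1 fitted profile of its condition multiplied by the size of the library. The 4 columns of a condition therefore hold no spread between replicates, and no test and no standard error could be computed from them. Column totals, which stand for depth, lay between 20739978 and 23935658 with LPS, between 22523516 and 30575195 with LPS + etoposide and between 20400994 and 25052093 with LPS + KU55933 + etoposide. Each column was divided by a size factor, and the resulting value is called the scaled count. A fold difference is the ratio of the scaled counts of 2 conditions after adding 1 to each. Differences of at least 2-fold are counted, and the share of all genes past the same limit is given as the background. The background is made of 15602 genes whose scaled count reached 10 in 4 or more libraries, and all 9 members are among them.

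With etoposide, mRNA was at least 2-fold higher than with LPS alone for 3 of the 9 genes, Cd80, Icam1 and Cd274, and at least 2-fold lower for none. In the background, 14.6% of genes were higher and 5.65% lower by this measure. The higher share was smaller without genes of low count: among the 10872 genes with a mean scaled count of at least 100, as all 9 members have, 8.47% were higher and 5.96% lower. The median log2 fold difference was −0.058 over the 9 genes and 0.0077 over the background. With KU55933 added before etoposide, 1 of the 9 genes, Cd86, was at least 2-fold higher than with etoposide and none was at least 2-fold lower, against 1.73% and 4.67% of the background and 1.19% and 1.89% of the more abundant genes. Against LPS alone, KU55933 and etoposide together left 4 genes at least 2-fold higher, Cd80, Icam1, Cd86 and Cd274, against 11.4% of the background, and none lower, against 5.74%. Among the more abundant genes these shares were 6.55% and 5.86%. The comparisons share conditions and are not independent of each other.

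**Figure D1:**
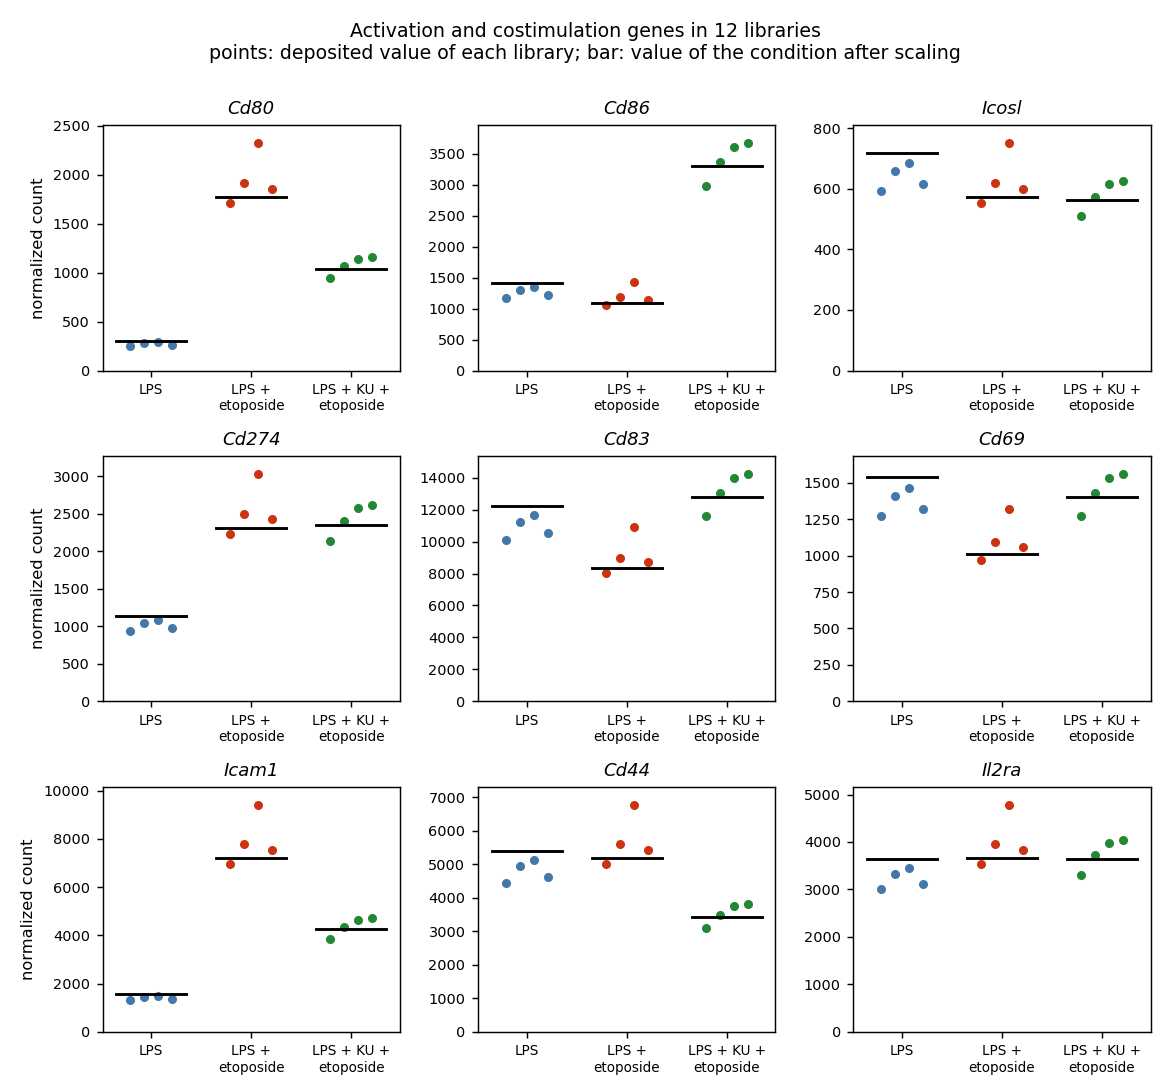
Normalized counts (y axis, from 0) of the 9 genes in the 3 conditions (x axis; KU stands for KU55933): each point is the deposited value of 1 of 4 libraries, and each bar is the scaled count of the condition. The points of a condition differ only by library size, in the same proportions for every gene, so that their scatter is not an error; Cd80 and Icam1 stood highest with LPS + etoposide and Cd86 with LPS + KU55933 + etoposide.

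Promoter windows of 300 bases, 250 before and 50 after the RefSeq start of transcription, were at hand for 6 members (Cd80, Cd44, Icosl, Cd274, Icam1 and Il2ra; GRCm38.p6) and were searched on both strands for 5 motifs. Matches are shown for Icam1 and Cd80, the genes with the largest differences with etoposide, and for Il2ra, whose count hardly differed. Each window holds up to 10 bases on either side of the match, 5′ to 3′ on the strand of the gene, with the match in capitals.
Icam1, NF-kB consensus, chr9:21015810-21015839: cagcgaggcaGGACCACCCCtctctgccag
Icam1, GAS (TTCNNNGAA, bound by STAT factors), chr9:21015888-21015916: ggcgcgaggtTTCCCGGAAagtggccccg
Cd80, AP-1 (TGANTCA), chr16:38458881-38458907: ggccacacccTGATTCAgaactctcac
Il2ra, NF-kB consensus, chr2:11642581-11642610: tgccgcggcaGGGAATCCCCctttccttgt
All 4 matches lie before the start, the first base at −120 and −42 in Icam1, −42 in Cd80 and −201 in Il2ra. The NF-kB consensus was found in 4 of the 6 windows (Icam1, Il2ra, Cd44 and Icosl), against 26.8% of all 32851 windows, among them 1 gene past 2-fold with etoposide and 3 that were not. The bases G and C made up 64.7% of the Icam1 window, 42.7% of Il2ra, 58% of Cd44 and 68% of Icosl. They made up 49.7% of Cd80 and 52.7% of Cd274, and the median of all windows was 52.7%. The part of base composition in the 4 windows with a match was not tested. In Il2ra a second match overlaps the first by all but 1 base. GAS was found in 1 window (8.30% of all windows) and AP-1 in 1 (7.81%), while the p53 decamer (8.36%) and the ISRE core, GAAA repeated after a gap of 2 bases (3.44%), were found in none of the 6. The annotated gene of Cd80 begins further upstream than its RefSeq start.

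Cd80 (ENSMUSG00000075122, chromosome 16, 38455561 to 38496335, plus strand, GRCm38) differed most from LPS alone. Its deposited values were 249, 277, 288 and 259 in LPS replicates 1 to 4, 1709, 1915, 2320 and 1857 in LPS + etoposide replicates 1 to 4, and 943, 1064, 1139 and 1158 in LPS + KU55933 + etoposide replicates 1 to 4. Every column with etoposide lay above every column without it, and the 3 conditions did not overlap. For this gene and those below, overlap between the columns of conditions follows from the fold and the library sizes alone. Neither overlap nor its absence is evidence from replicates. Scaled counts were 302.1 in LPS, 1771 in LPS + etoposide and 1041 in LPS + KU55933 + etoposide. Cd80 mRNA was thus 5.85-fold higher with etoposide than with LPS (log2 fold difference 2.55), and 539 of the 15602 genes had a larger one. With the inhibitor it was 1.70-fold lower than with etoposide (log2 −0.77) and still 3.44-fold higher than with LPS (log2 1.78).

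Cd86 (ENSMUSG00000022901, chromosome 16, 36603869 to 36666081, minus strand) encodes the second B7 ligand, and its values were ordered differently. The deposited values were 1168, 1296, 1348 and 1215 in LPS replicates 1 to 4, 1053, 1180, 1429 and 1144 in LPS + etoposide replicates 1 to 4, and 2984, 3364, 3604 and 3664 in LPS + KU55933 + etoposide replicates 1 to 4. The first 2 conditions overlapped and the third lay above both. Scaled counts were 1414, 1091 and 3294 in the same order of conditions. Cd86 mRNA was 1.30-fold lower with etoposide than with LPS (log2 −0.37), 3.02-fold higher with KU55933 and etoposide than with etoposide (log2 1.59), and 2.33-fold higher than with LPS (log2 1.22). Only 56 of the 15602 genes had a larger log2 fold difference with the inhibitor under etoposide.

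Transcripts of 2 genes can be set against each other within a condition, where the library sizes cancel. Per kilobase of annotated exon, Cd86 stood 4.74 times as high as Cd80 with LPS. With etoposide the order was the opposite, and Cd80 stood 1.61 times as high as Cd86. With KU55933 and etoposide Cd86 again stood 3.20 times as high as Cd80. Summed per kilobase, both genes came to 467.9 in LPS, 776.1 in LPS + etoposide and 1181 in LPS + KU55933 + etoposide, that is 1.66-fold higher with etoposide and 2.52-fold higher with the inhibitor and etoposide than with LPS. The larger part of this sum was Cd86 with LPS and with the inhibitor, and Cd80 with etoposide alone.

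Cd274 (ENSMUSG00000016496, chromosome 19, 29367455 to 29388095, plus strand) was higher with etoposide by nearly equal folds with and without the inhibitor. Its deposited values were 941, 1044, 1086 and 978 in LPS replicates 1 to 4, 2234, 2503, 3032 and 2427 in LPS + etoposide replicates 1 to 4, and 2134, 2407, 2578 and 2621 in LPS + KU55933 + etoposide replicates 1 to 4. Both conditions with etoposide lay above LPS and overlapped each other. Scaled counts were 1139, 2314 and 2356, so that Cd274 was 2.03-fold higher with etoposide (log2 1.02) and 2.07-fold higher with KU55933 and etoposide (log2 1.05) than with LPS. It lies at the limit of 2-fold and falls under it with TMM factors (log2 0.94) or with size factors over all genes (log2 0.91) in etoposide against LPS. Between etoposide with and without the inhibitor the log2 fold difference was 0.026.

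Icosl (ENSMUSG00000000732, chromosome 10, 78069302 to 78083913, plus strand) had no difference of 2-fold. Its deposited values lay between 592.0 and 683.3, between 552.0 and 749.4 and between 508.3 and 624.2 in the 3 conditions, which all overlapped. Its scaled counts were 717.0 with LPS, 572.0 with LPS + etoposide and 561.1 with LPS + KU55933 + etoposide. The log2 fold difference with etoposide was −0.33, and that of KU55933 under etoposide was −0.028, with a sign that depended on the scaling. Of the sum of the 4 ligands per kilobase, Cd80 made up 8.70% in LPS, 31.1% after etoposide and 14.4% after KU55933 and etoposide. Cd86 made up 41.2%, 19.4% and 46.1%, Cd274 33.5%, 41.5% and 33.3%, and Icosl 16.6%, 8.05% and 6.22% in the same order. These shares are the same under any scaling by 1 factor per library, but not under quantile normalization.

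**Figure D2:**
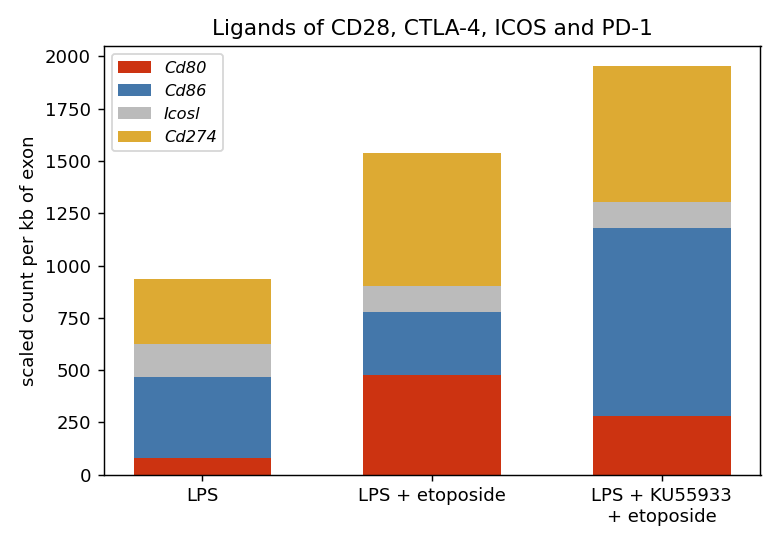
Scaled counts per kilobase of annotated exon (y axis, from 0) of the ligands Cd80, Cd86, Icosl and Cd274, stacked for each condition (x axis). Cd80 made up 8.70% of the stack with LPS and 31.1% with etoposide, while Cd86 was the largest part with LPS (41.2%) and with KU55933 and etoposide (46.1%) and Cd274 with etoposide alone (41.5%).

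Icam1 (ENSMUSG00000037405, chromosome 9, 21015985 to 21028817, plus strand) encodes the adhesion ligand of the integrin LFA-1. Its deposited values were 1303, 1445, 1503 and 1355 in LPS replicates 1 to 4, 6937, 7775, 9416 and 7537 in LPS + etoposide replicates 1 to 4, and 3848, 4339, 4648 and 4725 in LPS + KU55933 + etoposide replicates 1 to 4. As for Cd80, the 3 conditions did not overlap and the columns with etoposide alone were the highest. Scaled counts were 1577, 7188 and 4248. Icam1 mRNA was 4.55-fold higher with etoposide than with LPS (log2 2.19), 1.69-fold lower with KU55933 and etoposide than with etoposide (log2 −0.76) and 2.69-fold higher than with LPS (log2 1.43). Per kilobase, Icam1 went from the fifth place among the 9 genes with LPS to the second place in both conditions with etoposide. Its ratio to Cd80 per kilobase was 4.43 in LPS, 3.45 after etoposide and 3.46 when the inhibitor preceded it. Both promoter matches printed above, NF-kB and GAS, lie before its start.

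Cd44 (ENSMUSG00000005087, chromosome 2, 102811141 to 102901665, minus strand), the hyaluronan receptor, was lower where the inhibitor was present. Its deposited values lay between 4447 and 5132 with LPS, between 4993 and 6777 with LPS + etoposide and between 3101 and 3809 with both agents, so that the last condition lay below the other two, which overlapped. The scaled counts were 5385, 5174 and 3424. Cd44 mRNA was 1.51-fold lower with KU55933 and etoposide than with etoposide (log2 −0.60) and 1.57-fold lower than with LPS (log2 −0.65). Etoposide alone left it at a log2 fold difference of −0.058, and over 7 scalings this value lay between −0.17 and 0.15.

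Cd83 (ENSMUSG00000015396, chromosome 13, 43784775 to 43803132, plus strand) and Cd69 (ENSMUSG00000030156, chromosome 6, 129267325 to 129275436, minus strand) were both lower with etoposide and near the LPS value when KU55933 had been added first. CD83 is known to hold MHC class II and CD86 on the surface of B cells, and CD69 retains lymphocytes in tissue by removing the receptor S1PR1. Deposited values of Cd83 lay between 10116 and 11674 with LPS, between 8036 and 10908 with LPS + etoposide and between 11602 and 14247 with both agents, and only the conditions with and without the inhibitor under etoposide did not overlap. Its scaled counts were 12249.7, 8327 and 12807, 1.47-fold lower with etoposide than with LPS (log2 −0.56) and 1.54-fold higher with the inhibitor than with etoposide (log2 0.62). Per kilobase it was the highest of the 9 genes in every condition, above 98.6% of the background with LPS.

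Deposited values of Cd69 lay between 1270.4 and 1466 with LPS, between 974 and 1322 with LPS + etoposide and between 1272 and 1562 with both agents, with overlap between all 3 conditions. The scaled counts were 1538, 1009 and 1404. Cd69 mRNA was 1.52-fold lower with etoposide than with LPS (log2 −0.61) and 1.39-fold higher with KU55933 and etoposide than with etoposide (log2 0.48). Between KU55933 and etoposide and LPS the log2 fold differences were 0.064 for Cd83 and −0.13 for Cd69, and the sign of both depended on the scaling.

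Il2ra (ENSMUSG00000026770, chromosome 2, 11642807 to 11693193, plus strand) was the gene of the 9 whose scaled count varied least, with 3631, 3653 and 3641 in the 3 conditions. Deposited values lay between 2998 and 3461 with LPS, between 3526 and 4786 with LPS + etoposide and between 3298 and 4050.3 with both agents. The last condition overlapped both others, and the gap between the first 2 follows from the sizes of their libraries, since the scaled counts were nearly equal. The log2 fold differences were 0.0089 with etoposide, −0.0049 for the inhibitor under etoposide and 0.0040 between KU55933 and etoposide and LPS, and the sign of each depended on the scaling. Over 7 scalings the difference with etoposide stayed between −0.10 and 0.14. Il2rg, the signalling chain shared with other cytokine receptors, stood at 3628 in LPS, 2663 after etoposide and 3211 with the inhibitor, and Il2rb at 91.1, 113.0 and 71.7.

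**Figure D3:**
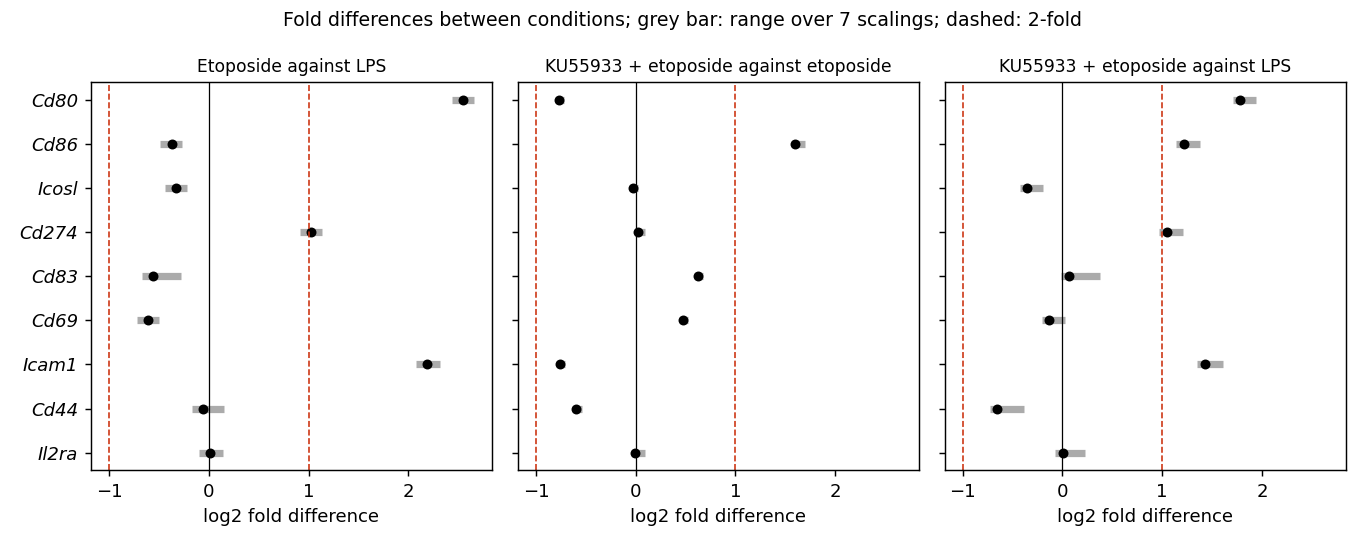
Log2 fold differences of the 9 genes (x axis) in the 3 comparisons: points are the values with the size factors used here, grey bars the lowest and highest value over 7 scalings, and dashed lines 2-fold. Cd80 and Icam1 stayed past 2-fold in both comparisons with LPS under all 7 scalings, Cd86 in both comparisons that involve KU55933, and Cd274 crossed the limit.

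With a limit of 1.5-fold, 5 of the 9 genes differed between etoposide with and without the inhibitor. Cd86 and Cd83 were higher, against 6.99% of the background, and Cd80, Icam1 and Cd44 were lower, against 11.8%. For etoposide against LPS the same 3 genes were higher as at 2-fold (22.4% of the background) and Cd69 was lower (15.5%). For KU55933 and etoposide against LPS the same 4 genes were higher (21% of the background) and Cd44 was lower (15.1%). Cd44 and Cd69 lay near this limit. For the inhibitor under etoposide, Cd44 fell under 1.5-fold with library totals (log2 −0.54), TMM factors (−0.56) or quantile normalization (−0.53). Against LPS, Cd44 lay between −0.73 and −0.38 over 7 scalings and did not pass the limit under all of them. Cd69 with etoposide fell under the limit with library totals (−0.50).

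The 9 genes were also placed among all 15602 genes by the order of the differences, which depends little on the size factors. For etoposide against LPS, Cd80 lay above 96.5% of the genes, Icam1 above 95.3% and Cd274 above 85.8%, while Cd69 lay above 14.7% and Cd83 above 16.5%. For the inhibitor under etoposide, Cd86 lay above 99.6%, Cd83 above 93.8% and Cd69 above 89.9% of the genes. At the other end, Cd80 lay above 7.73%, Icam1 above 7.83% and Cd44 above 11.6%. Cd274, Il2ra and Icosl lay between 52.2% and 58.2%, in the middle of the background.

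**Figure D4:**
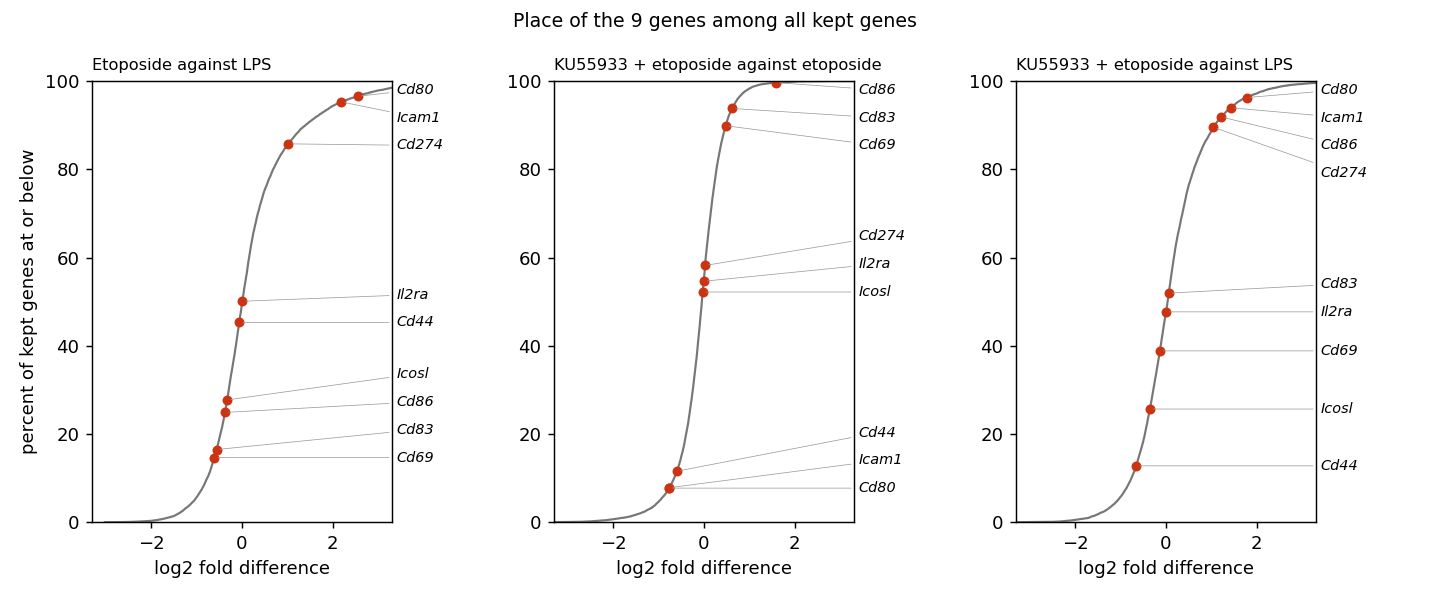
Log2 fold difference (x axis) against the percent of the 15602 genes at or below it (y axis) for each of the 3 comparisons: the grey line is all genes and the red points are the 9 members. Cd80 and Icam1 lay near the top with etoposide (96.5% and 95.3%) and near the bottom when KU55933 was added (7.73% and 7.83%), and Cd86 went from 24.9% to 99.6%.

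For the 4 genes past 2-fold in any comparison, the genes with the most similar values were sought among the 10872 with a mean scaled count of at least 100, by Euclidean distance of the log2 scaled counts centred over the 3 conditions. Nearest to Icam1 were Ikbke, an NF-kB pathway kinase (1216, 5465 and 3181 with LPS, LPS + etoposide and LPS + KU55933 + etoposide, distance 0.029), and Pomt2 (559.2, 2586 and 1554, distance 0.031). Nearest to Cd80 were Necab3 (distance 0.042) and Rnf169, which encodes a protein that binds ubiquitin at DNA breaks (1395, 8506 and 4920.2, distance 0.043). Nearest to Cd274 were Gm17552 (distance 0.013) and Fam43a (distance 0.017). Cd86 had no gene as near: Kbtbd11 lay at 0.10 (175.6, 122.8 and 401.4) and Ccr7, the receptor that guides activated B cells to the T cell zone, at 0.17 (4893, 4179 and 10717). A distance over 3 conditions rests on few values and is a description only.

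Other ligands and receptors of costimulation formed a list of 17 genes. Of the 14 that passed the filter, 5 were at least 2-fold higher with etoposide and none lower, against 14.6% and 5.65% of the background. With the inhibitor under etoposide 2 were higher and 1 was lower, against 1.73% and 4.67%. The median log2 fold difference of the 14 with etoposide was 0.48, against 0.0077 in the background. Cd276 (9.74), Tnfsf4 (8.90), Tnfrsf9 (4.58) and Cd70 (3.17) lay under 10 scaled counts with LPS. They passed the filter only through the conditions with etoposide, where they were higher, so the count and the median are partly set by the filter. Tnfsf4, which encodes OX40L, a ligand of the TNF family that costimulates T cells, stood at 8.90 scaled counts with LPS, 759.4 after etoposide and 540.8 after KU55933 and etoposide. The size of this difference rests on the very low count with LPS. Cd200, the ligand of an inhibitory receptor on myeloid cells, had the same order as Cd86, with 444.4, 305.1 and 859.6 (log2 1.49 for the inhibitor under etoposide). Tnfsf8, which encodes CD30 ligand, stood at 52.4, 91.6 and 190.3. Cd40, through which T cells license the B cell, differed little, with 2461, 2811 and 2857, and Pdcd1lg2, the other ligand of PD-1, with 96.2, 100.9 and 101.3.

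Of 9 genes for partners of the member proteins 6 passed the filter. With etoposide 1 was at least 2-fold higher, against 14.6% of the background. None differed by 2-fold with the inhibitor under etoposide. Itgal and Itgb2, the chains of LFA-1, were abundant and varied from 9621 to 11580.2 and from 2611 to 2933 scaled counts. Ctla4, the inhibitory receptor of CD80 and CD86, stood at 294.2, 367.5 and 452.2, whereas Cd28 stood at 9.08, 13.0 and 26.4. Pdcd1, which encodes PD-1, was higher with etoposide (30.9, 84.1 and 65.7).

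Among adhesion genes other than Icam1 and Cd44, those past 2-fold with etoposide were lower. Of the 11 genes reported here, 2 were at least 2-fold lower and none higher, against 5.65% and 14.6% of the background. Pecam1 stood at 3625, 1058 and 1898 and Cd47, the signal that protects cells from phagocytes, at 5484, 2488 and 3121. Icam2, the relative of Icam1 that resting lymphocytes express, hardly differed (920.6, 942.1 and 1105). Among 11 cytokine receptor genes, 1 was at least 2-fold lower with etoposide, Il9r (740.9, 206.6 and 326.7), and 1 with the inhibitor under etoposide, Il5ra (390.1, 324.6 and 153.7). The background shares were 5.65% and 4.67%.

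Other surface genes of the activation state differed in both directions. Of 17 genes that passed the filter, 2 were at least 2-fold higher with etoposide and 4 lower, against 14.6% and 5.65% of the background. Fas, a death receptor and known p53 target, had the same order as Cd80, with 329.4, 2586 and 1401, as had Sdc1, the plasmablast marker CD138, with 137.0, 1968 and 637.4. Fcer2a (CD23) and Cr2 (CD21), genes of mature B cells, were lower in both conditions with etoposide, at 9480.1, 2586 and 2528 and at 5437, 1923 and 1669. Of 10 genes of SLAM and tetraspanin proteins and their signalling partners, 2 were higher and 3 lower with etoposide. The background shares were 14.6% and 5.65%. Slamf7 stood at 1996, 5214 and 2481, Cd81, a tetraspanin, at 3238, 10053 and 8099, Cd53 at 10655, 4643 and 4861, Ptprc (CD45) at 25594, 10320.1 and 9031, and Cd180, a TLR relative, at 3463, 1093 and 364.5.

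Of 10 genes of NF-kB subunits and inhibitors, none was at least 2-fold higher with etoposide and 1 was lower, Nfkb1 (12602.5, 5828 and 6131). In the background 14.6% were higher and 5.65% lower. The median log2 fold difference of the 10 genes was 0.13 with etoposide and 0.10 with the inhibitor under etoposide. None of the 10 was past 2-fold with the inhibitor under etoposide.

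The cell type was checked against marker lists, since CD80, CD86 and ICAM-1 are also made by dendritic cells and macrophages. The 6 B cell markers reported here were all present, with a summed scaled count of 111272 in the LPS condition, 59184 after etoposide and 56558 after KU55933 and etoposide. Of these, Cd22 (23867, 4307 and 5063) and Pax5 (5487, 1130.0 and 1168) were at least 2-fold lower with etoposide, against 5.65% of the background. In bulk RNA, fewer cells of a type and less of an mRNA per cell cannot be told apart. Of 7 T cell markers 6 lay under 10 scaled counts in every condition, and the seventh was Lck (419.9, 296.3 and 269.8). NK cell and neutrophil markers summed to at most 2.17 and 1.16, and those of red blood cells to at most 91.8 (Hbb-bs 60.2, 41.9 and 28.6).

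Of 8 macrophage markers 7 passed the filter, with sums of 5501, 4691 and 4264, nearly all from Mpeg1, which B cells also express. Without Mpeg1 the sums were 415.7, 474.8 and 435.2. None of the 7 was 2-fold lower with etoposide, and 3 were at least 2-fold higher, as Cd80, Icam1 and Cd274 were (14.6% of the background). These were Cd68 (103.6 with LPS and 212.8 with etoposide), Csf1r (4.14 and 10.4) and Cd14 (5.12 and 24.4). Between etoposide with and without the inhibitor, Cd14 was higher with it (log2 0.72) and Cd68 (−0.28) and Csf1r (−0.089) were lower. Csf1r and Cd14 lay under 10 with LPS and passed the filter only through conditions with etoposide, where they were higher. The count of 3 is therefore partly set by the filter. The other markers that passed the filter were not past 2-fold: Itgam stood at 218.2 and 129.9, Adgre1 at 48.5 and 45.5, Lyz2 at 34.0 and 48.4, and Mpeg1 at 5085 and 4216. The part of macrophage RNA in the differences of the members was not tested. Dendritic cell markers summed to 2922, 1923 and 3406, mostly from Flt3 (2774, 1664 and 2947), and without it to 148.1, 259.9 and 459.2. Of the 3 that passed the filter, Zbtb46 (102.1, 182.8 and 407.7) was at least 2-fold higher with the inhibitor than with etoposide, as Cd86 was, whereas Flt3 (log2 0.82) and Xcr1 (40.8, 70.3 and 45.3, log2 −0.62) were not past 2-fold and differed in sign. The part of dendritic cell RNA in the difference of Cd86 was not tested. Itgax, the gene of the dendritic cell integrin CD11c, was at 3.96, 5.21 and 4.56, and Siglech and Clec9a were under 1 in every condition.

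An annotated antisense gene on the opposite strand covers 11.7% of the exonic bases of Icam1 and 14.1% of those of Cd274. Library preparation kept the strand, while the strand setting of the read counting is not given in the sources used here. Each condition carried Illumina indexes that no other condition carried, so that index and condition cannot be told apart.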

How the data were processed

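The 12 libraries, 4 per condition, were read by single-end mRNAseq. Reads were trimmed (cutadapt 1.2.1), mapped with TopHat2 2.0.12 to GRCm38, counted on Ensembl genes with HTSeq and fitted with DESeq2 1.6.3, per the labels and the methods. The values are a signal per gene and library that the authors deposited as normalized counts. Each column is 1 fitted profile of its condition times a library factor. The limma test, planned for values of each library, could therefore not be run, and the planned comparison of folds was used instead. The 3 deposited comparisons of the authors (fold changes, standard errors, p-values) were not used, and the errors they hold are not given here.

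Columns were divided by median-of-ratios size factors over genes with a geometric mean of at least 10, computed from the table; they are not the factors of the authors, which cannot be read from it, and 6 other scalings were tried. Genes that reached a scaled count of 10 in 4 or more libraries entered the background, a pseudocount of 1 was added, and at least 2-fold counted as a difference. Exonic lengths and coordinates came from GENCODE M21 (99.5% of kept genes had a length), and promoter sequences from RefSeq GRCm38.p6. Computation was in Python 3.11.15, numpy 2.4.6, pandas 2.3.3 and matplotlib 3.10.9, with TMM factors written anew, and was tested on simulated data.

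The members and gene lists were chosen with earlier results of these data known. From each other list, genes past 2-fold in etoposide against LPS or KU55933 under etoposide with a mean of at least 100 were named, at most 5 per list and comparison, or else the most abundant gene; for each member past 2-fold, the 2 nearest genes were named. From the adhesion and the B cell marker lists, 1 gene each is not reported here. Further genes of the lists, named as partners or relatives of a member or for their direction, were picked after their values were seen. The alternatives tried were library totals, TMM factors, quantile normalization, pseudocounts of 0.5 and 5, no filter, a minimum of 50, a limit of 1.5-fold and each library left out. Size factors over all genes or over 2 sets of more abundant genes, and the columns as deposited, were added after the data were seen.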

Additional observations from a re-analysis of the deposited data

How the results depend on the processing

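No paired analysis was possible because the columns of a condition are 1 fitted profile times a library factor, and same-numbered libraries share nothing that could be compared. For the same reason leaving out each of the 12 libraries only moved the size factors. Without 1 library the number of members past 2-fold stayed at 3 for etoposide against LPS, at 1 for the inhibitor under etoposide and at 4 for KU55933 and etoposide against LPS, which says nothing about the spread between replicates. Under the other 12 alternatives these counts lay between 2 and 4, 1 and 5, and 3 and 5. The count for the inhibitor under etoposide moved by more than 1.5 times with a limit of 1.5-fold, to 5 (2 higher, 3 lower), by the construction of the limit. Cd274 was the member that left the count under another scaling: its log2 fold difference with etoposide was 0.94 with TMM factors and 0.91 with size factors over all genes, and that of KU55933 and etoposide against LPS was 0.97 with the latter. No member past 2-fold turned its direction. Library totals, TMM factors and the other size factors shifted all log2 differences between etoposide and LPS by −0.11 to 0.11 in scale relative to the one used. With the columns as deposited, not scaled for library size, all were higher, as Il2ra at 0.32 and Cd44 at 0.25. Quantile normalization moved genes unequally, with Cd83 at −0.28 in place of −0.56 and Cd44 at 0.15 in place of −0.058. The sign of differences as small as those of Cd44 and Il2ra depended on this choice. Depth and the spread between replicates limit what can be said of the smaller differences, and neither could be given an interval from this table.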
